A study of Mus musculus with 26 samples.

Results

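Cell cycle genes were read in mouse melanomas taken early during adoptive T cell transfer or at relapse after it, and in untreated melanomas. The group was set by name and holds 35 genes: 10 of DNA replication, 17 of mitosis, and 8 cyclins and cyclin-dependent kinases that act before mitosis. Of these, 33 had at least 1 probe annotated to that gene alone, with 71 probes in all, and 53 of the probes passed the detection filter. The passing probes covered 28 of the 35 genes, and these 28 were tested among 9553 genes. Neither Mki67 nor Ccnb1 had a probe of a single gene symbol and they were not measured here. The remaining 5 genes, Ccnb2, Bub1, Kif20a, Ube2c and Cdk6, did not pass the filter.

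RNA came from HCmel3 melanomas excised from skin of C57BL6 mice and frozen in liquid nitrogen, and was read on 1 Illumina MouseWG-6 v2.0 array for each tumour. In the first table, 8 tumours taken early during treatment (EDT), 12 to 20 days after its onset, were compared with 8 untreated tumours (NT). In the second table, 5 tumours that relapsed after the transfer (relapse) were compared with 5 untreated controls (ctrl). Treated mice received 1 dose of cyclophosphamide, then CD8+ pmel-1 T cells, which carry a transgenic receptor for the melanocyte protein gp100, the product of Pmel, with an adenovirus vaccine expressing gp100 and the innate stimulants CpG and polyI:C, so an effect of the T cells cannot be told apart from that of the other agents. Neither the day of each EDT tumour nor the day of relapse or the age of the mice was stated. All tumours were of the 1 melanoma line HCmel3. No label states that the tumours of a group came from separate mice, so the p-values reflect variation among the arrays, part of which could be technical.

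In a dividing cell, replication origins are licensed by the MCM2 to MCM7 helicase, the DNA polymerase clamp PCNA and enzymes of nucleotide supply act in S phase, and mitosis is driven by CDK1 with B-type cyclins and ended by the anaphase-promoting complex. The D cyclins with CDK4 or CDK6, and cyclin E with CDK2, act earlier and release E2F transcription factors from the retinoblastoma protein. Transcripts of many replication genes are raised by E2F at the start of S phase. Transcripts of many mitotic genes are held down by the DREAM complex in resting cells and raised later, in G2, by MuvB with B-Myb and FOXM1, through a promoter element called the CHR. In a tumour such transcripts can come from tumour cells or from dividing immune and stromal cells.

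The promoters of 5 members on which the results turn are shown, because the replication and mitosis genes differ in the elements they hold. Each line gives the 250 bases before the transcription start in RefSeq (GRCm38.p6), 5′ to 3′ on the strand of the gene, which is the minus strand in all 5. Capitals mark matches on either strand to TTTGAA (the core of the CHR), CCAAT (the CCAAT box), and TTTNGCGC and GCGGGAA (E2F-type motifs). A match on the opposite strand reads TTCAAA or ATTGG.
Top2a, chr11:99024190-99024439: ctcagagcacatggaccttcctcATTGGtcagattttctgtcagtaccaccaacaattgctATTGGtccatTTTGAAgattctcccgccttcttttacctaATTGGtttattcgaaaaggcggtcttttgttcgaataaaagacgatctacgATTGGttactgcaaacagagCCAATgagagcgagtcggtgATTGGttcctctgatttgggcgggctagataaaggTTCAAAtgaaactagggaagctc
Cdk1, chr10:69352913-69353162: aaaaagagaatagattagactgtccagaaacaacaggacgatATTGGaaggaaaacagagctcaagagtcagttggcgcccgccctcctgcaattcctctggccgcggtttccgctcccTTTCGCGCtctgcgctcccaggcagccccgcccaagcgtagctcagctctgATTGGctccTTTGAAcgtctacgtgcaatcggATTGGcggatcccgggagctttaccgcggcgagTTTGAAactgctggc
Cdc20, chr4:118437344-118437593: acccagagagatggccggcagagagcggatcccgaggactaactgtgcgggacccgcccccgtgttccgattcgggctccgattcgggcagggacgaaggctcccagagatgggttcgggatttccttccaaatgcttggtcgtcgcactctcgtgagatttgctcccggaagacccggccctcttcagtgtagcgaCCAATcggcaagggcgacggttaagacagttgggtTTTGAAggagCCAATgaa
Mcm3, chr1:20820313-20820562: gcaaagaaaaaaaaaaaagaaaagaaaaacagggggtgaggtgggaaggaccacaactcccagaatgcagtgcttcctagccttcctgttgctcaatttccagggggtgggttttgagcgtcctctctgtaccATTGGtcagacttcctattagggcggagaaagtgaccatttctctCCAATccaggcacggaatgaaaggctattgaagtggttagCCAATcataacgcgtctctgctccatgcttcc
Cdk2, chr10:128705052-128705301: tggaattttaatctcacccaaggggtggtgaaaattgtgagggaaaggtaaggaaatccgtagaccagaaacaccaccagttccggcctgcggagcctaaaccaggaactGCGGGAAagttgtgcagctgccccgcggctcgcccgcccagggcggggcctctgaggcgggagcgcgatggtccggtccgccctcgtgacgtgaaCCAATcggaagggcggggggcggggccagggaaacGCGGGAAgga

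Promoter windows of 300 bases, 250 before and 50 after the start, were listed for 27 of the 35 genes, with 29 windows in all. TTTGAA occurred in 10 of 13 windows of mitosis genes (76.9%), in 1 of 10 windows of replication genes and in 0 of 6 windows of cyclins and early kinases, against 17.9% of all 32851 windows in the table. The promoters of Top2a and Cdk1 each held it 2 times. E2F-type motifs of either form showed the opposite distribution, with 6 of 10 windows of replication genes (60.0%), 1 of 13 of mitosis genes (7.69%) and 1 of 6 of cyclins and early kinases, against 5.84% of all windows. The motif TTTNGCGC alone was in 1.38% of all windows. In Mcm3 both E2F-type matches lay in the 50 bases after the start, which are not printed. CCAAT was common to replication (9 of 10) and mitosis genes (12 of 13) and was in 37.4% of all windows. The windows of Tyms and of Birc5, a mitosis gene that was called in both comparisons, held none of the 4 motifs. These are letter matches in fixed windows, they say nothing of binding, and the shares rest on few windows.

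Arrays detected 15008 to 16830 probes in EDT, 14064 to 16312 in NT, 15992 to 18323 in relapse and 14545 to 17033 in ctrl tumours. The mean number was higher in EDT than in NT tumours (15982 against 14955, exact test p = 0.00793). It was also higher in relapse than in ctrl tumours (17609 against 16013, exact test p = 0.0397). Before normalization, the 3 NT arrays of 1 slide had median signals of 89.6 to 94.1, against 107.7 to 117.5 on the other NT arrays. Whether these array differences bear on the group differences, the NT spread or the effect of scaling was not tested. Between replicates, r over all tested genes was 0.893 to 0.981 in EDT, 0.932 to 0.983 in NT, 0.853 to 0.970 in relapse and 0.939 to 0.967 in ctrl. In the second table, member probes were read on 19 to 75 beads (median 41), and the standard error between beads was 2.26% to 11% of the signal (median 4.81%). The melanocyte markers were detected in every group, apart from Tyr, which was detected on no relapse array. All levels below are normalized log2 signals of the brightest passing probe of a gene. The tables were normalized apart, so levels are compared within a table, and probes differ in brightness, so levels of different genes are not compared.

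Early during treatment, 4 of the 28 tested cell cycle genes rose and 1 fell at an adjusted p under 0.05. These were 5 of 28 genes, beside 29.6% of all tested genes called in this comparison, 14.5% higher and 15.1% lower. The share of members called was thus no larger than the background. At an unadjusted p under 0.05 there were 7 of 28 members, beside 40.8% of all genes. The 4 that rose were Top2a, Cdk1 and Birc5 of the mitosis genes and Tyms of the replication genes, and the 1 that fell was Cdk2. The median log2 difference was 0.22 over 11 mitosis genes, -0.04 over 10 replication genes and -0.21 over 6 cyclins and early kinases (-0.10 with Ccna2, which no EDT or NT array detected), against -0.05 over all genes. Centring each array on its median in place of quantile normalization moved the median of all genes to 0.29, that of the mitosis genes to 0.59 and that of the replication genes to 0.33, so the sign of the replication genes depends on the scaling.

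Top2a, which encodes the topoisomerase that untangles chromosomes before they separate, showed the clearest EDT difference. Its log2 signal ran from 9.67 through a median of 10.002 to 10.12 in EDT tumours, against 8.38, 9.26 and 9.61 in NT tumours. All 8 EDT tumours lay above all 8 NT tumours, which 4.58% of all genes also did in this direction. The mean was higher by 0.74 ± 0.15 (SE, limma, adjusted p = 0.00165), or 1.67-fold. A dimmer Top2a probe, detected on 6 of 8 EDT and 4 of 8 NT arrays, differed by 0.23 and was not called (adjusted p = 0.650 over all probes).

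Cdk1, the kinase that drives entry into mitosis, had log2 signals of 10.39, 10.73 and 10.98 (lowest, median and highest) in EDT tumours and 9.82, 10.17 and 10.74 in NT tumours. The groups overlapped, with 4 EDT tumours above every NT tumour. The difference was 0.49 ± 0.14 (SE, limma adjusted p = 0.0167). Birc5 encodes survivin, a subunit of the chromosomal passenger complex that also inhibits apoptosis. It ranged over 9.99, 10.14 and 10.56 in EDT tumours and over 9.20, 9.88 and 10.09 in NT tumours, a difference of 0.41 ± 0.14 (SE, limma adjusted p = 0.0331). In EDT, 5 tumours lay above every NT tumour, and the other 2 passing Birc5 probes differed by 0.23 and 0.30 without being called.

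Tyms, thymidylate synthase, makes the thymidine nucleotide for DNA synthesis. It was the replication member that rose: its log2 signal was 9.12, 9.41 and 10.05 in EDT tumours and 8.06, 9.01 and 9.38 in NT tumours. The difference was 0.58 ± 0.20 (SE, limma adjusted p = 0.0324), and a second Tyms probe differed by 0.52 (adjusted p = 0.160). The other 9 replication genes, Mcm2, Mcm3, Mcm4, Mcm5, Mcm6, Mcm7, Pcna and the ribonucleotide reductase subunits Rrm1 and Rrm2, differed by -0.24 to 0.15 and none was called. The dimmest passing Mcm6 probe, detected on 4 of 8 EDT and 6 of 8 NT arrays, was lower in EDT by 0.57. It was called (limma adjusted p = 0.0495 over all passing probes, of which 14.5% were called lower).

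Of the mitosis genes that were not called in EDT, Kif11, the spindle motor Eg5, differed by 0.44 ± 0.21 (limma adjusted p = 0.128) and Aurka, the centrosomal Aurora kinase, by 0.31 ± 0.17 (adjusted p = 0.169). Plk1, Aurkb, Bub1b, Tpx2, Cdc20 and Foxm1 lay between -0.19 and 0.22. Among cyclins, the differences of Ccnd1 (0.39 ± 0.19, adjusted p = 0.126) and Ccnd2 (0.56 ± 0.29, adjusted p = 0.163) were positive, and that of Ccnd3 (-0.33 ± 0.12) was negative with an adjusted p of 0.0501. A second, dimmer probe of Ccnd3 was lower by 0.76 (adjusted p = 0.00706 over all probes) and at relapse higher by 0.76 (adjusted p = 0.0394), so the call for this gene depends on the probe. Ccne1 differed by -0.10, and Ccna2 was detected on 0 of 8 EDT and 0 of 8 NT arrays, so its fold is not given there.

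**Figure D1:**
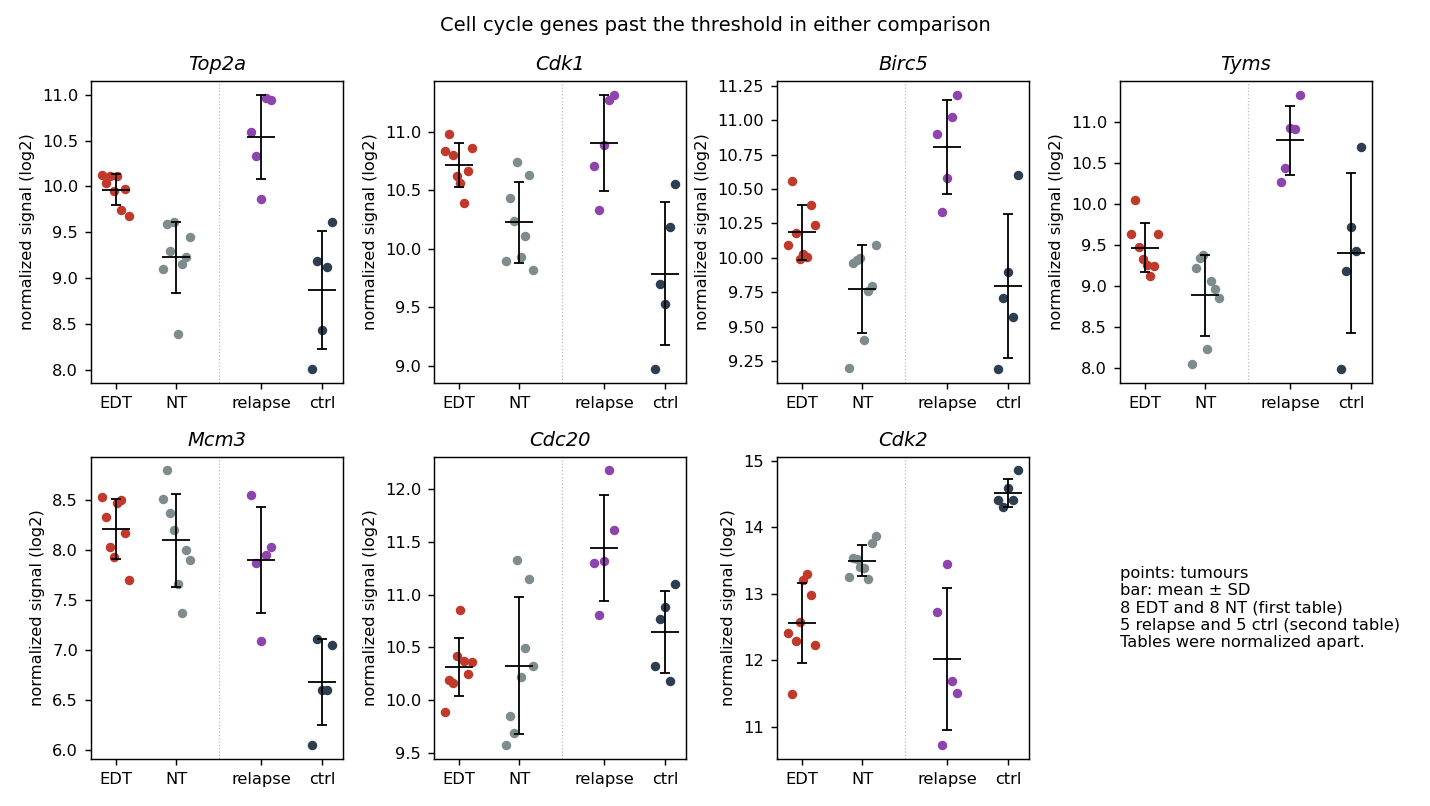
Normalized log2 signal (vertical axis) of the 7 genes past the threshold in either comparison, in each EDT, NT, relapse and ctrl tumour (points), with the mean and SD of each group (bars). EDT points of Top2a lie above all NT points, relapse points of Top2a above and of Cdk2 below all ctrl points, and the other genes overlap in at least 1 comparison.

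None of the 5 EDT calls held within a slide. Only 1 of the 5 slides of the first table held both groups, with 2 EDT and 3 NT tumours, and within it the differences were 0.54 for Top2a (limma adjusted p = 0.294), 0.57 for Cdk1 (0.360), 0.43 for Birc5 (0.397), 0.48 for Tyms (0.351) and -1.02 for Cdk2 (0.158), each in the direction of the whole comparison. With the slide as a fixed block none of the 5 was called (limma adjusted p = 0.0582 for Cdk2 and 0.190 to 0.446 for the others), and with the slide as a random block Tyms (0.0674) and Birc5 (0.0533) were not. Top2a, Cdk1 and Cdk2 kept their calls whichever single tumour was left out. The call of Tyms was lost without EDT replicate 1, 2, 3 or 8 or NT replicate 1 or 5, where its difference was no lower than 0.46 and its adjusted p no higher than 0.0655. The call of Birc5 was lost without EDT replicate 2, 3, 7 or 8 or NT replicate 1 or 5 (difference at least 0.33, adjusted p at most 0.0667).

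At relapse, 6 members rose and 1 fell. These 7 of 28 genes stand beside 30.8% of all genes called in this comparison, 13.3% higher and 17.5% lower. At an unadjusted p under 0.05 there were 10 of 28 members, beside 43.6% of all genes. Top2a, Cdk1, Birc5 and Cdc20 rose among the mitosis genes, Mcm3 and Tyms among the replication genes, and Cdk2 fell. The median log2 difference was 0.61 over 11 mitosis genes and 0.39 over 10 replication genes, and 0.30 over 6 cyclins and early kinases (0.39 with Ccna2, which passed the filter through the relapse tumours alone), against -0.07 over all genes. With median centring these were 1.02 for mitosis and 0.80 for replication genes, against 0.30 over all genes. Of the 28 differences 23 were positive, beside 4427 of all 9553 genes. Of these 23, 17 were in genes that were not called. The genes were read in the same tumours, so their signs are not separate observations.

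For Mcm3, a subunit of the MCM helicase, relapse tumours had log2 signals of 8.55, 7.87, 7.09, 7.95 and 8.03, against 6.05, 7.10, 6.59, 6.60 and 7.05 in ctrl tumours. The lowest relapse tumour, replicate 3, fell just under the highest ctrl tumour, and the other 4 lay above all controls. The difference was 1.22 ± 0.29 (SE, limma adjusted p = 0.00890), or 2.33-fold. Tyms had 10.27, 10.44, 10.92, 10.91 and 11.33 in relapse tumours and 7.99, 9.18, 9.72, 9.43 and 10.70 in ctrl tumours, a difference of 1.37 ± 0.42 (SE, limma adjusted p = 0.0280). Ctrl replicate 5 was above 2 of the relapse tumours, and a second Tyms probe was higher by 1.16 (adjusted p = 0.0175).

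The other MCM genes were mostly positive but below the threshold: Mcm5 0.77 ± 0.28 (limma adjusted p = 0.0589), Mcm4 0.67 ± 0.29 (0.101), Mcm6 0.37 ± 0.20 (0.180), Mcm7 0.25 ± 0.24 (0.459) and Mcm2 -0.09 ± 0.27 (0.835). For Mcm6 the brightest probe was the exception among 4 probes. The other 3 were higher in relapse by 1.22, 0.97 and 0.94 (adjusted p = 0.00604, 0.00249 and 0.0144 over all passing probes, of which 31.0% were called). Of these 3 probes, 1 was detected on 5 of 5 relapse and 0 of 5 ctrl arrays. Pcna (0.04), Rrm1 (-0.21) and Rrm2 (0.42) were not called.

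Top2a again stood apart from its controls. Its signals were 10.59, 10.33, 9.86, 10.97 and 10.94 in relapse tumours and 8.0007, 9.18, 8.43, 9.12 and 9.61 in ctrl tumours. No relapse tumour overlapped a control, as was so for 7.43% of all genes in this direction, and the difference was 1.67 ± 0.33 (SE, limma adjusted p = 0.00375), or 3.17-fold. Of the 7 calls at relapse, that of Top2a held in every setting tried. The dimmer Top2a probe taken alone was higher at relapse by 0.83 but was not called (limma adjusted p = 0.0756 over all probes).

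Cdk1 had signals of 10.70, 10.33, 10.89, 11.27 and 11.31 in relapse tumours and 8.97, 9.70, 9.52, 10.18 and 10.55 in ctrl tumours. Only relapse replicate 2 fell within the range of the controls, and the difference was 1.11 ± 0.31 (SE, limma adjusted p = 0.0182). Birc5 had 10.90, 10.33, 10.58, 11.02 and 11.18 in relapse tumours and 9.19, 9.71, 9.90, 9.57 and 10.60 in ctrl tumours. Its difference was 1.01 ± 0.27 (SE, limma adjusted p = 0.0165), the other 2 Birc5 probes were higher by 1.32 and 1.43, and all 3 were called. Ctrl replicate 5 was the control that reached into the relapse range for both genes.

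Cdc20, which activates the anaphase-promoting complex, had signals of 11.30, 10.81, 11.32, 12.18 and 11.61 in relapse tumours and 10.32, 10.77, 10.88, 10.18 and 11.10 in ctrl tumours. The difference was 0.79 ± 0.27 (SE, limma adjusted p = 0.0455), with 4 relapse tumours above all controls. Its 4 probes were all higher in relapse tumours, by 0.62 to 1.83, and 2 of them were called. In EDT tumours Cdc20 had 9.88, 10.30 and 10.85 (lowest, median and highest), against 9.57, 10.27 and 11.33 in NT tumours, a difference of -0.02 ± 0.23 (adjusted p = 0.966). The dimmest of its probes was lower in EDT by 0.66 (adjusted p = 0.0470).

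Aurkb, the kinase of the passenger complex, was higher on the mean by 0.83 ± 0.30 in relapse (limma adjusted p = 0.0529), the nearest of the members to the threshold without passing it, and with the slide as a block (0.0160) or the authors' values (0.0263) it was called. Plk1 (0.61), Foxm1 (0.57), Aurka (0.55), Tpx2 (0.20) and Bub1b (0.10) were not called either. Kif11 was the mitosis gene with a negative difference, -0.63 ± 0.35 (adjusted p = 0.179). Of the cyclins, Ccnd1 (0.63), Ccnd2 (0.46), Ccnd3 (0.15), Ccna2 (0.39) and Ccne1 (-0.25) were not called. Ccna2 was detected on 5 of 5 relapse and 2 of 5 ctrl arrays, and Ube2c, the ubiquitin-conjugating enzyme of the anaphase-promoting complex, on 4 of 5 relapse and 2 of 5 ctrl arrays. Cdk6 was detected on 3 of 5 relapse arrays and on 0 arrays of the other groups, and Ccnb2, Bub1 and Kif20a on 0 arrays of any group.

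**Figure D2:**
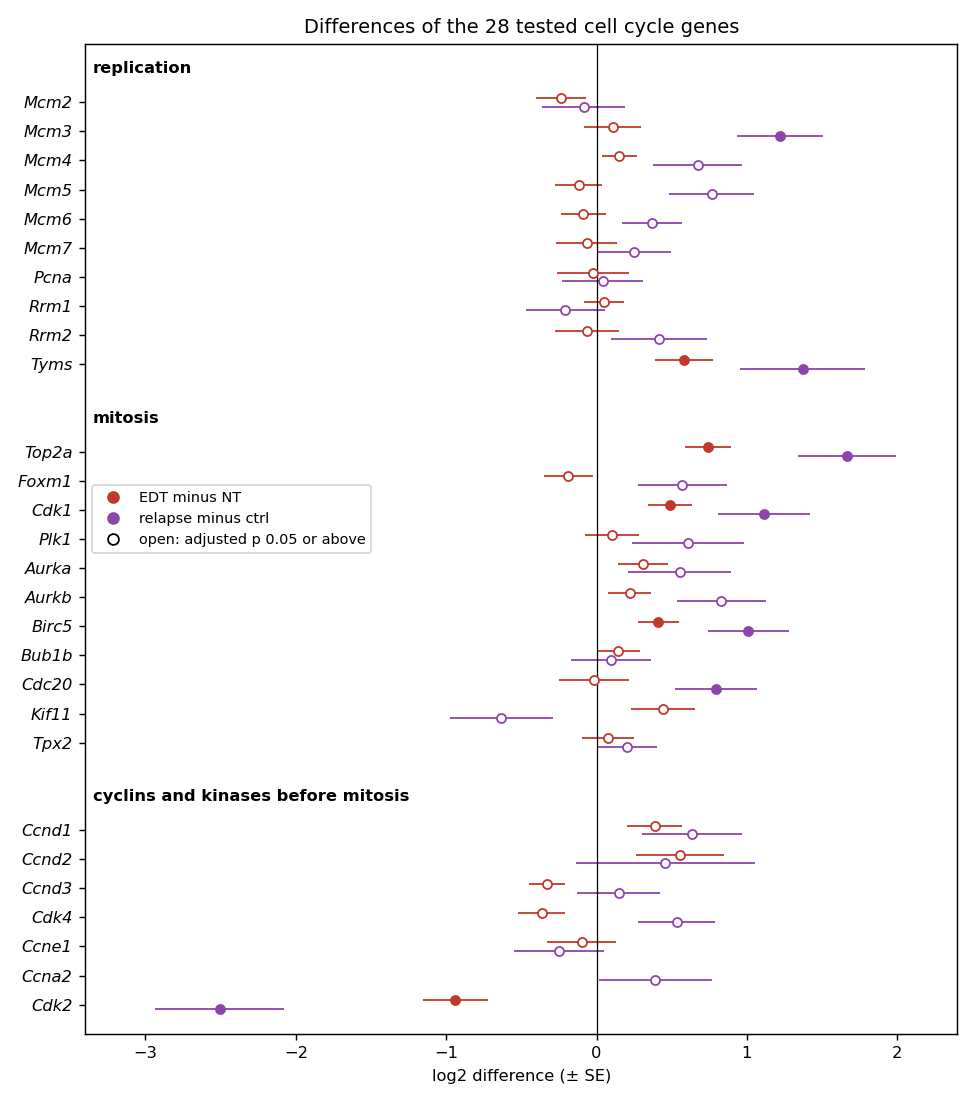
Log2 difference (horizontal axis, points) with its SE (bars) of each tested member, by role, for EDT minus NT and relapse minus ctrl, filled where the adjusted p is under 0.05. Most relapse differences of replication and mitosis genes lie right of 0 and of the EDT differences, Cdk2 lies far left in both, and Ccna2 has no EDT point because no EDT or NT array detected it.

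Both slides of the second table held relapse and ctrl tumours. Within the slide of 3 and 3 tumours the differences were 1.72 for Top2a (limma adjusted p = 0.0410), 1.24 for Cdk1 (0.0544), 1.26 for Mcm3 (0.136) and -2.15 for Cdk2 (0.0932), and within the slide of 2 and 2 they were 1.59 (0.0164), 0.92 (0.0642), 1.17 (0.0368) and -3.05 (0.00318). Birc5 (1.004 and 1.02), Tyms (1.58 and 1.06) and Cdc20 (0.49 and 1.26) were positive within both slides and called in neither. With the slide as a fixed block over all 10 tumours all 7 calls held (limma adjusted p = 0.00131 for Top2a to 0.0403 for Cdc20), and Aurkb (0.0160), Mcm5 (0.0210) and Mcm4 (0.0380) were called higher too, which makes 9 members higher. Over all 9553 genes, the fit with the slide as a fixed block called 1316 higher and 1745 lower. Within the slide of 2 and 2 the median of the replication genes was 0.10, lower than the 0.39 of all tumours. Tyms lost its call without relapse replicate 4 or 5 or ctrl replicate 2 or 4 (difference at least 1.02, adjusted p at most 0.0692), and Cdc20 without relapse replicate 1, 4 or 5 or ctrl replicate 1, 2, 3 or 4 (at least 0.61, at most 0.104). Cdc20 was also not called with the authors' processed values (0.76, adjusted p = 0.0622) or without the detection filter (0.0768).

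Untreated tumours varied among themselves in these genes. The level of a role in a tumour was taken as the mean log2 difference of its genes from the mean of the untreated tumours of the same table. Mitosis levels were 0.70, 0.18, 0.32, 0.92 and 0.98 in the 5 relapse tumours, against -0.48, -0.14, -0.08, -0.02 and 0.73 in the 5 ctrl tumours. Replication levels were 0.65, 0.23, 0.33, 0.57 and 0.63 in relapse and -0.43, -0.20, -0.05, 0.03 and 0.65 in ctrl tumours. Ctrl replicate 5 was the highest control for 23 of the 28 members, and relapse replicate 2 the lowest relapse tumour for 16. Without ctrl replicate 5, 9 members were called higher and 1 lower, and the median differences were 0.87 for mitosis and 0.56 for replication genes. Over all 9553 genes, 1102 were then called higher and 1422 lower, with a median difference of -0.07.

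In the first table the mitosis level ran from 0.13 to 0.48 in EDT tumours (SD 0.11, n = 8) and from -0.36 to 0.59 in NT tumours (SD 0.32, n = 8). The replication level ran from -0.15 to 0.20 in EDT tumours (SD 0.12) and from -0.38 to 0.34 in NT tumours (SD 0.29). EDT tumours thus lay within the range of the NT tumours for both roles. NT replicate 4 was the highest NT tumour for 13 of 28 members, and without it 5 members were called higher and 1 lower. Over all 9553 genes, 1307 were then called higher and 1366 lower.

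**Figure D3:**
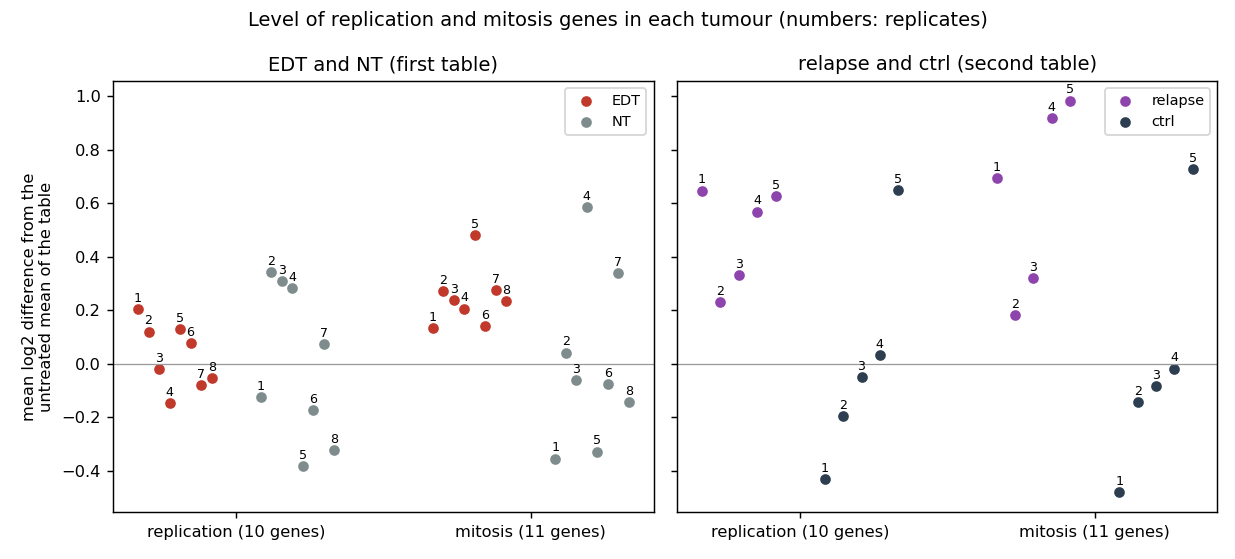
Mean log2 difference from the untreated mean (vertical axis) over 10 replication and 11 mitosis genes in each tumour (points, numbered by replicate), for EDT and NT on the left and relapse and ctrl on the right. EDT mitosis levels, 0.13 to 0.48, sit inside the NT range of -0.36 to 0.59, and ctrl replicate 5, at 0.73, lies among the relapse tumours.

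The spread of single members followed the same pattern. The SD between tumours was smaller in EDT than in NT for 21 of the 21 replication and mitosis genes, and for 26 of all 28 members (92.9%), against 64.4% of all genes. The median SD of the members was 0.21 in EDT and 0.41 in NT tumours, against 0.29 in EDT and 0.36 in NT over all genes. In the second table the SD was smaller in relapse than in ctrl for 17 of 28 members (60.7%), against 41.2% of all genes. These shares were not tested, and they were looked at after the values had been seen.

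Cdk2 fell in both comparisons, and by more than any other member. Its log2 signals were 11.49, 12.49 and 13.30 (lowest, median and highest) in EDT tumours and 13.22, 13.46 and 13.88 in NT tumours, with 7 EDT tumours below every NT tumour. Full separation in this direction, which Cdk2 did not reach in EDT, was seen for 1.49% of all genes. The share of genes with at least 7 EDT tumours below every NT tumour was not counted. The difference was -0.94 ± 0.21 (SE, limma adjusted p = 0.00338), or 0.521-fold. With median centring it was -0.64 (adjusted p = 0.0899). At relapse the signals were 12.72, 10.72, 13.45, 11.68 and 11.50, against 14.42, 14.31, 14.60, 14.41 and 14.86 in ctrl tumours. All relapse tumours lay below all controls, as for 10.7% of all genes in this direction, and the difference was -2.51 ± 0.43 (SE, limma adjusted p = 0.00197), or 0.176-fold. All 4 Cdk2 probes were called lower in both comparisons, by 0.94 to 1.53 in EDT and by 2.21 to 2.51 in relapse.

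Cdk2 lies inside a gene that is itself a marker of the tumour. In RefSeq (GRCm38.p6), Cdk2 occupies chr10:128697938-128705051, and all 7114 of its bases fall within the span given to Pmel, chr10:128695888-128720238. Pmel encodes gp100, the protein that the transferred T cells recognise. Its levels were looked at because of this overlap, after the Cdk2 values had been seen. Its log2 signal was 12.84, 14.50 and 15.14 (lowest, median and highest) in EDT tumours and 14.63, 14.85 and 15.14 in NT tumours, a difference of -0.51 that was not called (limma adjusted p = 0.141). At relapse it was 6.27 to 13.95 (median 9.84), against 14.995 to 15.24 (median 15.14) in ctrl tumours. After quantile normalization the highest EDT and the highest NT tumour had the same Pmel value, 15.1391. The SD of Pmel was 0.16 in NT and 0.10 in ctrl tumours, against 0.77 in EDT tumours. Whether signals as high as these are compressed was not tested.

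Across the 8 EDT tumours Cdk2 and Pmel signals moved together, with Pearson's r = 0.93 (exact permutation p = 0.00141, 0.00283 adjusted over 2 relations) and Spearman's rho = 0.81 (exact permutation p = 0.0218, adjusted 0.0436). When the 2 tumours lying farthest from the median Pmel level were left out, r was 0.87 (n = 6, exact permutation p = 0.0361). When the 2 were chosen by their Cdk2 level instead, r was 0.77 (n = 6, exact permutation p = 0.0833), so the side of the threshold depends on which 2 are left out. Across the 8 NT tumours r was 0.53 (exact permutation p = 0.176, adjusted 0.176) and rho 0.40 (exact p = 0.327). Pmel varied little among these NT tumours (SD 0.16), which limits that correlation. A value within single slides is not given, as a slide held at most 3 tumours of a group. The 3 EDT tumours with the lowest Pmel, replicates 1, 2 and 3, shared 1 slide. From the NT mean, they differed by -1.03, -2.01 and -0.88 in Pmel and by -1.09, -2.01 and -1.21 in Cdk2. The permutations did not keep to slides, so a slide difference cannot be told apart from a relation between tumours. The 5 relapse tumours are too few for a correlation, but their order by Cdk2 and by Pmel was the same. The sequences of the probes were not used here, so whether Cdk2 probes read RNA of the overlapping gene was not tested.

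**Figure D4:**
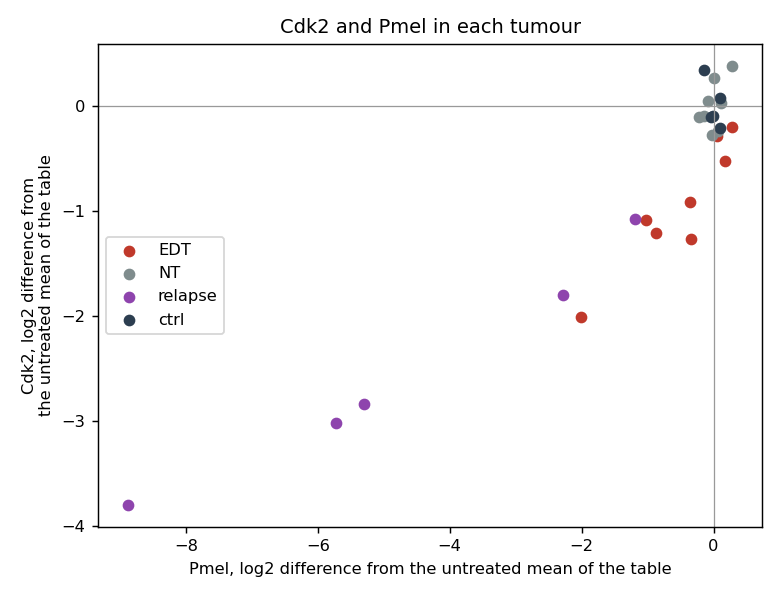
Cdk2 (vertical axis) against Pmel (horizontal axis) in each EDT, NT, relapse and ctrl tumour (points), both as log2 differences from the untreated mean of the table. Untreated tumours cluster at 0. EDT replicate 2 and relapse replicate 2 have the lowest Pmel and the lowest Cdk2 of their groups. EDT replicate 8 has low Cdk2 (-1.27) with Pmel nearer the untreated mean (-0.34).

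The EDT effect differed from the relapse effect for 4 members, called in a fit over all 26 arrays in which 16.6% of all genes were called, 9.76% with a higher and 6.80% with a lower EDT effect. For Mcm3 the EDT effect of 0.11 was below the relapse effect of 1.22 by 1.11 ± 0.34 (limma adjusted p = 0.0251), and its EDT signals of 7.70, 8.25 and 8.53 overlapped NT signals of 7.37, 8.10 and 8.79 (lowest, median and highest). For Cdk2 the EDT effect of -0.94 was less negative than the relapse effect of -2.51, by 1.57 ± 0.45 (adjusted p = 0.0197). The median of EDT effect minus relapse effect was -0.47 over replication genes, -0.60 over mitosis genes and -0.07 over the 6 cyclins and early kinases other than Ccna2, against 0.07 over all genes.

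Mcm5, another helicase subunit, had signals of 10.44, 10.68 and 10.91 in EDT and 10.23, 10.80 and 11.33 in NT tumours (lowest, median and highest), and of 11.51, 10.72, 10.89, 11.65 and 11.69 in relapse and 9.88, 10.39, 10.45, 10.70 and 11.21 in ctrl tumours. Neither comparison was called for it, and the EDT effect was below the relapse effect by 0.89 ± 0.30 (limma adjusted p = 0.0442). Cdk4, the partner of the D cyclins, had signals of 10.46, 10.79 and 11.08 in EDT and 10.70, 11.09 and 11.93 in NT tumours, an effect of -0.36 (adjusted p = 0.0895). At relapse it had 10.72, 10.37, 10.84, 10.90 and 10.54, against 9.33, 10.03, 10.19, 10.43 and 10.73 in ctrl tumours, an effect of 0.53 (adjusted p = 0.129), and the effects differed by -0.90 ± 0.28 (adjusted p = 0.0315). A second Cdk4 probe was lower by 0.45 in EDT (adjusted p = 0.0444) and differed by -0.04 at relapse. The difference of effects was not called for Top2a (-0.93, adjusted p = 0.0526), Kif11 (1.08, 0.0623) or any other member.

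Leaving out single tumours ended 3 of these 4 calls. That of Mcm5 was lost under 17 of the single omissions (difference -1.06 to -0.73, adjusted p at most 0.10), that of Mcm3 without relapse replicate 1 or ctrl replicate 1 (at most 0.0578), and that of Cdk4 without relapse replicate 4 or ctrl replicate 1 (at most 0.0714). The call of Cdk2 was kept under each single omission (1.24 to 1.93), but not with the mean over its probes (1.17, adjusted p = 0.115). Median centring ended the calls of Mcm3, Mcm5 and Cdk4. The authors' values ended those of Mcm5 (limma adjusted p = 0.105) and Cdk4 (0.0613). The mean over probes also ended that of Cdk4 (0.0557), and a fit without the detection filter that of Mcm5 (0.0688). With the slide as a fixed block none of the 4 differences was called (adjusted p = 0.0566 for Cdk4, 0.120 for Mcm5, 0.127 for Mcm3 and 0.130 for Cdk2).

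**Figure D5:**
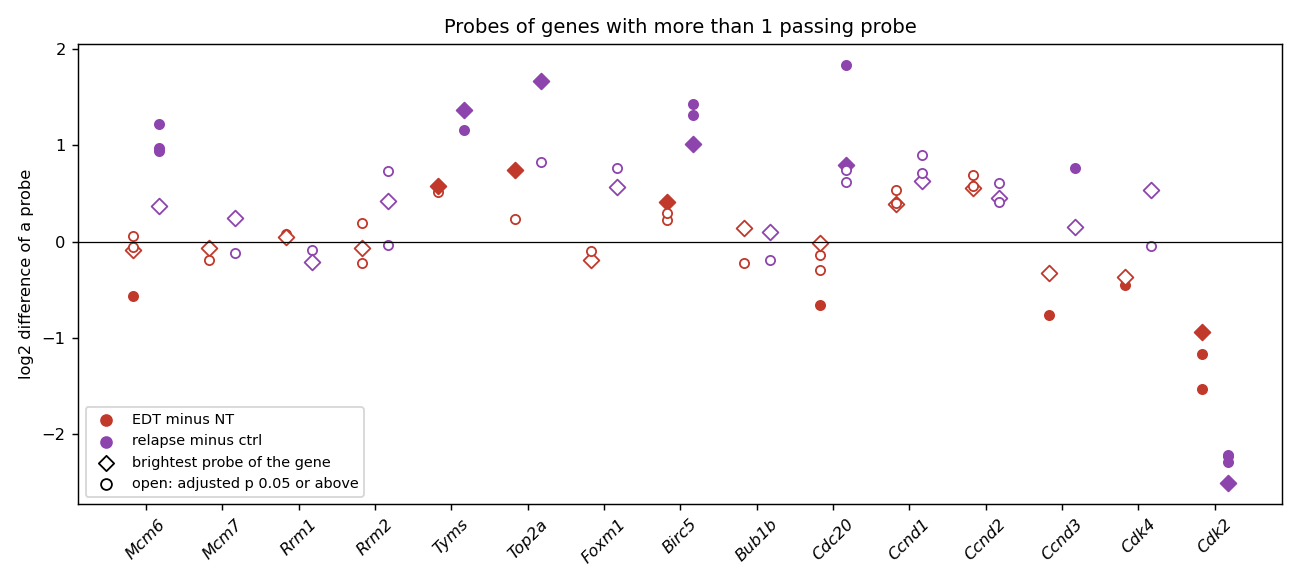
Log2 difference (vertical axis) of every passing probe of the 15 genes with more than 1, for EDT minus NT and relapse minus ctrl, filled where the adjusted p over all probes is under 0.05 and with a diamond for the brightest probe. The 4 Cdk2 probes lie below 0 in both comparisons, the 4 Cdc20 and 3 Birc5 probes above 0 at relapse, and 3 of 4 Mcm6 probes are filled at relapse where the brightest is open.

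Over the 53 passing member probes, 4 were called higher and 8 lower in EDT, beside 12.5% and 14.5% of all passing probes, and 4 of the 8 lower ones were of Cdk2. At relapse 14 were called higher and 4 lower, beside 14.6% and 16.4% of all passing probes, and the 4 lower ones were those of Cdk2. Of the 15 genes with more than 1 passing probe, 12 had the same sign at all probes in EDT and 11 at relapse.

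Other genes of the same processes were read from separate lists. Of 31 tested replication genes outside the members, 1 rose and 2 fell in EDT: Rfc3, of the clamp loader, was higher by 0.43 (limma adjusted p = 0.0489), and Chaf1b, of a histone chaperone, and the DNA ligase Lig1 were lower by 0.50 and 0.48 (adjusted p = 0.0116 and 0.0316). At relapse 5 of the 31 rose and 0 fell. They included the licensing factors Cdc6 (1.05), Cdt1 (0.92) and Orc6 (0.88) and the single-strand binding protein gene Rpa2 (0.74). The median difference of this list was 0.06 in EDT and 0.39 at relapse. The called genes were 9.68% of the list in EDT and 16.1% at relapse, no larger than the 29.6% and 30.8% of all genes.

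Of 36 tested mitosis genes outside the members, 6 rose and 1 fell in EDT. The kinetochore gene Cenpk was higher by 1.09 (limma adjusted p = 0.000208), the kinesin gene Kif18a by 0.58, the spindle checkpoint gene Mad2l1 by 0.56 and Nusap1, of the spindle, by 0.54, and the microtubule regulator Stmn1 fell by 0.58. At relapse 6 of the 36 rose and 0 fell, led by Ckap2 (1.83), the condensin gene Smc2 (1.76), Ect2 (1.37), which acts in cytokinesis, and the chromokinesin gene Kif4 (1.30). The median difference was 0.17 in EDT and 0.20 at relapse. The called genes were 19.4% of this list in EDT and 16.7% at relapse, again no larger than the 29.6% and 30.8% of all genes. Of 14 tested E2F and pocket protein genes, E2f3 rose in EDT (0.52, adjusted p = 0.00452). At relapse E2f2 rose (1.20) and Rb1 (-1.38), Tfdp2 (-0.72) and E2f4 (-0.67) fell. These calls were 7.14% of the E2F and pocket protein genes in EDT and 28.6% at relapse, beside the same shares of all genes.

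The cell make-up of the tumours moved with these comparisons. Of 9 tested T cell markers, 9 rose in EDT and 6 at relapse, and their summed linear signal was 4914 to 41163 in EDT against 1579 to 2795 in NT tumours, and 3110 to 8563 in relapse against 1629 to 3081 in ctrl tumours. Cd3d, Cd3g, Cd247, Cd2 and Cd6 were detected on 0 NT and 0 ctrl arrays. They passed the filter only through treated tumours, where they are high, so their calls are not separate evidence of a rise. The same holds for Itgam among the macrophage and monocyte markers. Of 12 macrophage and monocyte markers, 12 rose in EDT and 11 at relapse, with sums of 32167 to 62043 in EDT against 7064 to 18765 in NT, and 19597 to 64089 in relapse against 6515 to 12705 in ctrl tumours. Of 7 neutrophil markers, 4 rose in each comparison. Over all genes, 14.5% rose and 15.1% fell in EDT, and 13.3% rose and 17.5% fell at relapse.

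Melanocyte markers moved the other way, with 4 of 12 lower in EDT and 12 of 12 lower at relapse. Their summed signal was 81844 to 170143 in EDT against 151011 to 184068 in NT, and 15291 to 116714 in relapse against 179327 to 193171 in ctrl tumours. Endothelial markers fell for 3 of 6 in EDT and 1 of 6 at relapse, fibroblast markers rose for 3 of 8 and 1 of 8, and 0 of 2 keratinocyte, 0 of 6 muscle and 0 of 3 erythroid markers were called in either. The keratinocyte sum still varied widely between tumours, from 62 to 28746 in EDT and 46 to 15705 in NT. It was 62 to 30834 in relapse and 89 to 3419 in ctrl tumours. In whole tumours, fewer cells of a type and less RNA per cell cannot be told apart, and the part of other cells in the changes of cell cycle genes was not tested.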

How the data were processed

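The 35 members and all gene lists were chosen with earlier results of these data known. Total RNA (100 ng per tumour) was amplified once, labelled and read on arrays of 7 slides, per the labels. The authors deposited 2 tables of probe intensity that were neither background-corrected nor normalized, with a detection p-value per probe and, in the second table, the bead count and the signal of the bead standard error, per the file headers. The authors' processed log2 values were also deposited, with column medians of 4.66 to 4.86. They ranked probes as the intensities did, but their exact processing is not given in the sources used here, nor is the scanner software. Titles in the second table call its arrays re-analyzed, with no explanation.

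The tables held 45264 and 45281 probes. In the first, 4 rows with mistyped probe names were left out, which with 17 probes present only in the second left 45260. Of these, 34871 had 1 gene symbol in the platform annotation, 18 several and 10371 none, and 0 symbols needed updating. Each table was background-corrected and quantile-normalized with neqc in limma 3.58.1 (R 4.3.3), taking the negative controls from the detection p-values, with an offset of 16. Probes were kept (16624) where 5 or more arrays of any 1 group had a detection p below 0.01. The brightest represented its gene in fits over 9553 genes adjusted by Benjamini-Hochberg, calling genes below 0.05, run with lmFit and eBayes per table and, for the difference of effects, over all 26 arrays. The fit was tested on simulated data. Values are given in full for members past the threshold in any of the 3 fits, and in brief for the others. Of other pathway genes at most 4 per direction and comparison are named, those with the largest differences among the called. Motifs were counted in Python 3.11.15. The number of arrays and the bead noise limit the precision. Other settings covered background correction, scaling, filters, probes, slides, replicate numbers and each tumour left out.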

Additional observations from a re-analysis of the deposited data

Results flagged for a closer look

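Each of 112 sets held the 8 or 5 tumours of 1 group for 1 member. In 6 of them the highest or lowest tumour was far from the rest, by Dixon's test, which chance alone passes in about 1 of 20 sets. Ctrl replicate 5 was high for Mcm2 (log2 signal 10.98, nearest control 9.98), Plk1 (10.36, nearest 9.24) and Aurka (9.93, nearest 8.71). NT replicate 4 was high for Plk1 (10.83, nearest 9.91), and NT replicate 5 was low for Top2a (8.38, nearest 9.10). Relapse replicate 3 was high for Rrm2 (8.91, nearest 8.52).

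The EDT effect differed from the relapse effect, by a test of the difference itself in limma, for Mcm3 (EDT effect minus relapse effect -1.11, adjusted p = 0.0251), Mcm5 (-0.89, adjusted p = 0.0442), Cdk4 (-0.90, adjusted p = 0.0315) and Cdk2 (1.57, adjusted p = 0.0197). The EDT and relapse tumours were hybridised on different slides, so slide and study stage cannot be told apart in this difference.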

How the results depend on the processing

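Of the values of the 5 members called in EDT under other settings, 102 of 130 kept the call, and of the 7 called at relapse 122 of 147, with 0 changes of sign. Many of these settings left out a single tumour and so shared nearly all their arrays. The same share over all called genes was not counted, so these counts have no background. Calls over all genes ranged from 2340 to 3099 in EDT, 2125 to 3943 at relapse and 1035 (without relapse replicate 5) to 2497 (without relapse replicate 3) for the difference of effects when single tumours were left out. In the same omissions, members called higher numbered 2 to 5 in EDT and 4 to 9 at relapse, and members called lower 1 to 2 and 1 to 1. The medians, Ccna2 included, ranged from 0.15 to 0.29 (mitosis), -0.08 to 0.05 (replication) and -0.22 to 0.00 (cyclins and early kinases) in EDT, and 0.46 to 0.87, 0.31 to 0.56 and 0.12 to 0.47 at relapse. With median centring, EDT had 8 members higher and 0 lower (medians 0.33 for replication and 0.59 for mitosis), relapse had 14 higher (medians 0.80, 1.02 and, for cyclins and early kinases, 0.78), and 647 genes were called in the difference. The calls over all genes were 1385 higher and 1446 lower in EDT (48.9% higher) and 1270 and 1674 at relapse (43.1% higher). Median centring gave 2275 and 174 (92.9%) and 2086 and 656 (76.1%), and the authors' values 1747 and 756 (69.8%) and 1536 and 1314 (53.9%). With the authors' values the median of cyclins and early kinases in EDT was 0.078. Without background correction 2 members were lower in EDT, beside 1490 of all genes, and that median was 0.14 at relapse. A filter of detection on all arrays of a group gave 2 lower members in EDT, beside 1424 of all genes. The mean over probes gave 2 members higher and 3 lower, beside 1342 and 1544 of all genes. With slide as a fixed block EDT had 1045 calls (612 higher and 433 lower), 1 member higher and 0 lower, with medians of 0.19 (replication) and -0.33 (cyclins and early kinases), and the difference had 844. Slide as a random block gave 2 members higher in EDT, beside 1212 of all genes. Within the slide of both EDT and NT, 480 genes (410 higher and 70 lower) and 0 members higher or lower were called, with the same medians of 0.19 and -0.33. Within the slide of 3 relapse and 3 ctrl tumours, 568 genes (57.9% higher), 1 member higher and 0 lower were called. Within that of 2 and 2, 2 members were higher, beside 1142 of all genes, and the medians were 0.14 (cyclins and early kinases), 0.10 (replication) and 0.80 (mitosis). Leaving out Ccna2, chosen after seeing the data, gave cyclin and early kinase medians of -0.21 in EDT and 0.30 at relapse. The causes were not tested beyond the smaller number of tumours. Same-numbered tumours were not treated as pairs, since not every pair passed: the correlation of their deviations was over 0.1 in 1 of 8 EDT and NT pairs and 3 of 5 relapse and ctrl pairs, and 1 and 3 of these tumours correlated best with their own number, at relapse a hint of pairing from the data alone. With the replicate block 2514 genes were called in EDT (members 4 higher, 1 lower) and 3117 at relapse (8 higher, 1 lower), where Cdc20 was not called (adjusted p = 0.0681) and Aurkb (0.0181), Mcm5 (0.0410) and Mcm4 (0.0490) were.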
